A study of Bos taurus with 30 samples.

Results

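The desmosome genes described here are PKP1, PKP2, PKP3, DSP, DSC2, DSG2, JUP, PPL and EVPL. They were chosen by name, as genes of desmosome proteins, but with earlier results of these data known. Other desmosome genes were kept in a separate list, described below. Each symbol matched 1 row of the count tables, so that all 9 members were found among 27607 genes. Their counts were followed in all 30 libraries, by cell type, glucose concentration and insulin dose.

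Desmosomes are spot-like junctions that tie the keratin filaments of neighbouring epithelial cells together. Desmogleins and desmocollins, the desmosomal cadherins, bind each other between the cells, the armadillo proteins plakoglobin and the plakophilins bind the cadherin tails inside the cell, and plakins such as desmoplakin connect them to keratin. In the uterus they join the epithelial cells of the lumen and glands, whose junctions are known to be rearranged when an embryo implants, whereas stromal fibroblasts are usually joined by adherens junctions, which anchor actin in place of keratin.

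Primary endometrial cells of cows that were not pregnant, in the early luteal phase, were grown on both sides of a porous membrane in a microfluidic device, epithelial cells in the upper and stromal cells in the lower chamber, and RNA was sequenced after 72 h of flow. In the glucose experiment the medium held 5 mM or 50 mM of glucose. In the insulin experiment it held insulin at 1 ng/mL, insulin at 10 ng/mL, or the vehicle (acetic acid in PBS), each with 5 mM of glucose. Each of the 10 groups had 3 replicates, numbered 1 to 3. Both cell types were exposed in the same device, were enriched by straining and by their plating times but not sorted for sequencing, and were taken off the device with trypsin. The study calls the 3 replicates of its RNA figures biological, and its methods also mention technical replicates at the inlet. The sources do not say which replicates came from the same animal. The p-values thus measure the spread between these libraries, which may in part be technical.

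The glucose libraries held 13493503 to 16647701 counted reads and the insulin libraries 8826470 to 13214728. Levels are given as CPM, the count per 1000000 counted reads of the library. CPM is not divided by gene length, so that levels are compared between libraries and not between genes. A count of 0 allows up to 3 reads, or 0.18 to 0.34 CPM depending on the library, for counting error only. Both cell types carried their own markers: the summed CPM of 18 epithelial markers was 8530 to 16360 in epithelial and 4.12 to 5829 in stromal libraries, and that of 15 stromal markers was 1081 to 6835 and 22010 to 85650. Summed endothelial (4 genes), leukocyte (3 genes) and smooth muscle (4 genes) markers reached at most 76.9, 12.4 and 302 CPM in epithelial and 20.3, 16.8 and 3117 CPM in stromal libraries. Some libraries stood apart. Epithelial markers were at a median of 66.5% of their epithelial level in 1 stromal library, replicate 3 at 50 mM glucose, and in the epithelial library of replicate 2 at 5 mM glucose the keratin KRT18 was 3.14 times the mean of the other 5 mM libraries and DSC2 was 0.509 times that mean. The glucose results and the cell type counts at both glucose concentrations were also computed without the replicates of these libraries.

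DSG2 (ENSBTAG00000021923) encodes desmoglein 2, the desmoglein of simple epithelia. In epithelial cells its level was 311, 129 and 145 CPM at 5 mM glucose and 259, 182 and 149 CPM at 50 mM (replicates 1, 2 and 3). In the insulin experiment the epithelial libraries had 211 to 287 CPM, and the median of all 15 was 245 CPM. Stromal cells had far less, and unevenly. The stromal libraries held 34.5, 6.92 and 0.915 CPM at 5 mM, and 45.4, 15.9 and 84.3 CPM at 50 mM. They held 1.14, 11.3 and 10.7 CPM with vehicle, 1.85, 0.848 and 10.7 CPM at 1 ng/mL, and 11.0, 0.438 and 9.51 CPM at 10 ng/mL. All 15 epithelial libraries lay above all 15 stromal libraries.

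DSC2 (ENSBTAG00000040584) encodes desmocollin 2, the partner cadherin of desmoglein 2. The epithelial libraries had 378, 155 and 233 CPM at 5 mM glucose, 444, 402 and 247 CPM at 50 mM, and 218 to 390 CPM in the insulin experiment. Unlike DSG2, it was plentiful in every stromal library. The stromal libraries had 110, 131 and 57.6 CPM at 5 mM and 139, 148 and 205 CPM at 50 mM. In the insulin experiment they had 149, 152 and 178 CPM with vehicle, 145, 144 and 178 CPM at 1 ng/mL, and 155, 130 and 183 CPM at 10 ng/mL. The cell types overlapped only across conditions: the lowest epithelial library, replicate 2 at 5 mM, was below the highest stromal library, replicate 3 at 50 mM. Within each condition every epithelial library lay above every stromal one.

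JUP (ENSBTAG00000017685) encodes plakoglobin, an armadillo protein of desmosomes that also binds the classical cadherins of adherens junctions. Its epithelial level had the narrowest relative range of the 9, with 405 CPM in the lowest, 485 CPM in the median and 530 CPM in the highest of 15 libraries. The stromal libraries had 207, 153 and 258 CPM at 5 mM and 210, 184 and 301 CPM at 50 mM glucose. With insulin vehicle they had 142, 217 and 110 CPM. The cell types did not overlap, yet the stromal median of 184 CPM over 15 libraries was far beyond what a count of 0 would permit.

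The plakophilins link the cadherin complex sideways and to desmoplakin, and they differed in how far stromal cells shared them. PKP2 (ENSBTAG00000002651) is the plakophilin of simple epithelia and heart. Its epithelial level was 95.5, 84.5 and 103 CPM at 5 mM and 93.2, 71.5 and 90.1 CPM at 50 mM glucose, and its stromal level was 61.7, 33.3 and 27.8 CPM and 58.4, 28.7 and 48.7 CPM. With insulin vehicle the epithelial libraries had 87.9, 90.1 and 49.0 CPM and the stromal libraries 12.2, 32.3 and 9.32 CPM. Over all 30 libraries PKP2 overlapped between the cell types, but only across the experiments. In the insulin experiment 3 epithelial libraries, all of replicate 3, lay between 47.3 and 49.0 CPM, below the highest stromal glucose library. Within the glucose experiment the lowest epithelial library had 71.5 CPM and the highest stromal one 61.7 CPM. Within the insulin experiment these were 47.3 and 32.7 CPM.

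PKP1 (ENSBTAG00000046350), a plakophilin best known from stratified epithelia, had 25.4 CPM in the lowest, 45.6 CPM in the median and 64.6 CPM in the highest of 15 epithelial libraries. PKP3 (ENSBTAG00000048098), which binds a wide range of desmosomal cadherins, had 69.9, 77.5 and 234 CPM in the same order. In stromal cells both were close to absent except in a few libraries. PKP1 had 0.456, 0.0629 and 0.732 CPM at 5 mM and 2.38, 0.955 and 17.8 CPM at 50 mM glucose. PKP3 had 5.73, 0 and 0.0610 CPM at 5 mM and 12.6, 3.96 and 45.6 CPM at 50 mM. At 1 ng/mL of insulin the 3 stromal libraries held 1, 1 and 5 reads of PKP1 and 1, 1 and 2 reads of PKP3, so that PKP3 was not above the limit of a count of 0 in any of them. Neither gene overlapped between the cell types.

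DSP (ENSBTAG00000015106) encodes desmoplakin, the plakin that ties the junction to keratin. The epithelial libraries had 732, 674 and 494 CPM at 5 mM and 649, 465 and 497 CPM at 50 mM glucose, and 451 to 704 CPM in the insulin experiment, with a median of 508 CPM over all 15. The stromal libraries had 33.4, 0.314 and 0.366 CPM at 5 mM and 73.4, 24.1 and 253 CPM at 50 mM. They had 0.962, 33.4 and 0.325 CPM with vehicle, 0.463, 0.170 and 0.484 CPM at 1 ng/mL, and 16.8, 0 and 2.50 CPM at 10 ng/mL. Even the highest stromal library, replicate 3 at 50 mM, was below the lowest epithelial one. The stromal libraries of a group were seldom alike, with 1 library far above the other 2 at 5 mM and with vehicle.

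PPL (ENSBTAG00000002178) and EVPL (ENSBTAG00000010517) encode periplakin and envoplakin, plakins that partner each other and are known from the cornified envelope of skin. PPL had 428, 1723 and 358 CPM in epithelial cells at 5 mM and 454, 493 and 374 CPM at 50 mM glucose, and 396 to 518 CPM in the insulin experiment, with a median of 452 CPM over all 15. Its stromal level was 38.8, 4.21 and 63.9 CPM at 5 mM, 63.4, 31.0 and 198 CPM at 50 mM, and 7.63 to 30.6 CPM in the insulin experiment. EVPL was the most uneven member within epithelial cells, with 2.46, 145 and 33.2 CPM at 5 mM and 7.70, 26.9 and 38.6 CPM at 50 mM, whereas the insulin libraries kept to 15.0 to 26.6 CPM. In stromal cells EVPL had 0.242 to 2.35 CPM in 14 libraries and 31.4 CPM in replicate 3 at 50 mM. PPL did not overlap between the cell types, and EVPL did.

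**Figure D1:**
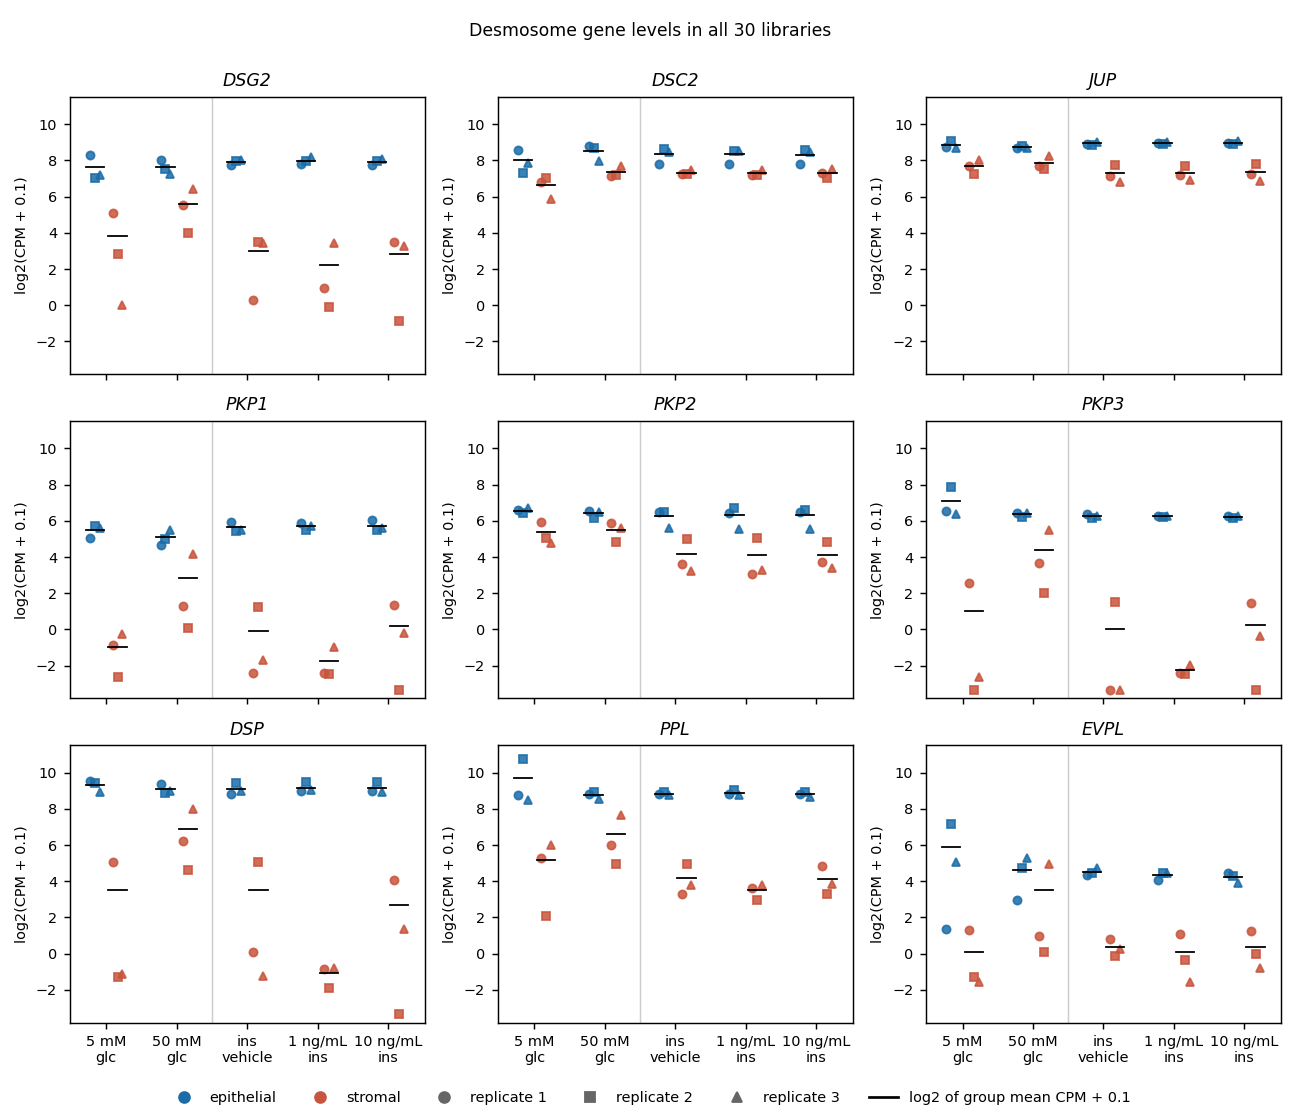
Level of each desmosome gene as log2(CPM + 0.1) on the vertical axis in the 30 libraries, by condition on the horizontal axis (glc, glucose; ins, insulin), with blue for epithelial and red for stromal cells, a marker shape for each replicate number and a black bar for the log2 of the group mean CPM + 0.1. DSC2 and JUP stay high in stromal cells and PKP2 goes down to 8.34 CPM, while DSP, PKP1 and PKP3 fall to 0 CPM in single stromal libraries.

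Over all conditions, 6 of the 9 members (PKP1, PKP3, DSP, DSG2, JUP and PPL) had every epithelial library above every stromal one. The same held for 885 of 13811 protein-coding genes that reached 1 CPM in 3 or more libraries, a background of 6.41%. In bulk RNA, fewer cells that express a gene and less RNA per cell cannot be told apart.

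The comparison of the cell types asks which genes set the epithelium apart from the stroma in each medium. Each gene was tested in edgeR by the quasi-likelihood method, with the replicate number as a block. Called genes had a Benjamini-Hochberg adjusted p-value under 0.05 and a log2 fold change beyond 0.1 in size, and positive values stand for more RNA in epithelial cells. All 9 members were higher in epithelial cells in each of the 3 insulin conditions. The share of all protein-coding genes called higher in epithelial cells was 28.2% with vehicle, 29.9% at 1 ng/mL and 27.3% at 10 ng/mL. At 5 mM glucose 4 members were called, against a background of 10.8%, and at 50 mM glucose 2 were called, against 6.57%. All 9 fold changes were above 0 in all 5 comparisons, and every member passed the filter on low counts in each. At 5 mM glucose and in the insulin conditions, PKP1, PKP3 and DSP passed it through their epithelial libraries, where they are high. For these genes, passing the filter thus says nothing about their stromal reads. The median over the members was 4.51 at 5 mM, 2.13 at 50 mM, 4.74 with vehicle, 5.29 at 1 ng/mL and 4.69 at 10 ng/mL, and the median over all genes lay between -0.013 and 0.029.

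With insulin vehicle, the log2 fold changes fell into a low and a high range. DSC2 differed by 0.91 (standard error 0.158, adjusted p = 0.00856 in edgeR's quasi-likelihood test, Benjamini-Hochberg adjusted), JUP by 1.63 (standard error 0.245, adjusted p = 0.00569) and PKP2 by 2.14 (standard error 0.318, adjusted p = 0.00543). The plakins EVPL and PPL differed by 4.18 (standard error 0.249) and 4.74 (standard error 0.390), and DSG2 by 5.15 (standard error 0.713). PKP1, PKP3 and DSP gave 5.83, 6.41 and 7.24, and these genes passed the filter through their epithelial libraries. Their stromal levels were uneven, at 0.0875, 2.26 and 0.217 CPM for PKP1, 0, 2.81 and 0 CPM for PKP3, and 0.962, 33.4 and 0.325 CPM for DSP (replicates 1, 2 and 3). The stromal library of replicate 2 had a median of 3.70% for the epithelial markers. Outside it the reads were few, and edgeR adds a small count. Across the 3 insulin conditions the fold changes of the first group hardly moved, from 0.89 to 0.91 for DSC2, from 1.57 to 1.63 for JUP and from 2.14 to 2.30 for PKP2. These 3 comparisons have no library in common, although libraries of one replicate number resemble each other.

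At 5 mM glucose, PKP1 (6.58, standard error 0.764, adjusted p = 0.00558), PKP3 (7.73, standard error 1.81, adjusted p = 0.0307), DSP (8.54, standard error 1.75, adjusted p = 0.0206) and DSG2 (4.51, standard error 0.872, adjusted p = 0.0176) were called in edgeR's quasi-likelihood test, Benjamini-Hochberg adjusted. The other 5 members had adjusted p-values from 0.0864 to 0.148. Without the replicate block DSP and DSG2 were not called and EVPL and PPL were. Leaving out 1 replicate at a time gave 3 to 6 called members, and without replicate 2 the calls were PKP1, DSC2 and PPL, the members' median was 2.82, and 12.0% of all genes were called higher. At 50 mM, PKP1 (2.94, standard error 0.700, adjusted p = 0.0462) and DSG2 (2.13, standard error 0.529, adjusted p = 0.04999) were just inside the threshold, and the other 7 had 0.0511 to 0.164. Neither was called without the replicate block. Without replicate 3, whose stromal library carried the epithelial markers, 8 members were called, with a median of 3.16, and so were 13.3% of all genes. Without replicate 1 no member and 0.0% of all genes were called, and the members' median was 2.17. PKP2, DSC2 and JUP had smaller fold changes than the other members at both glucose concentrations, from 0.73 to 1.14.

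**Figure D2:**
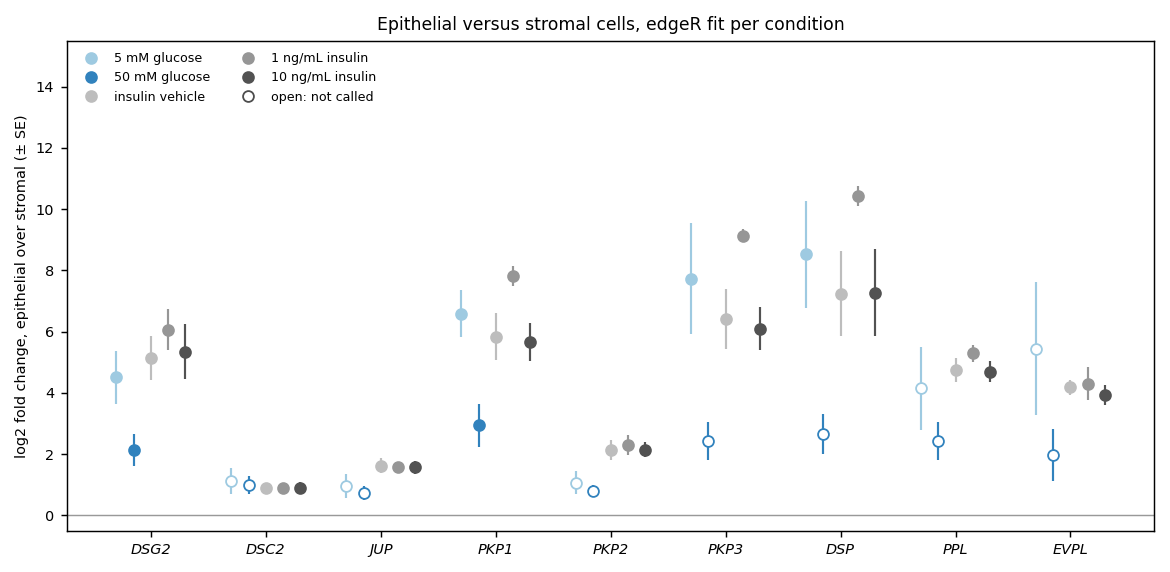
Log2 fold change between epithelial and stromal cells on the vertical axis for each desmosome gene and condition, with bars of 1 standard error from the edgeR fit on 6 libraries, filled where called and open where not. All points lie above 0, DSC2, JUP and PKP2 lie lowest, and the points of PKP1, PKP3 and DSP at 1 ng/mL rest on at most 6 reads in each stromal library.

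Epithelial markers were not at the same level in all stromal libraries, so each member's stromal level was set beside them. A gene's CPM in a stromal library was expressed as a percentage of its mean CPM in the 3 epithelial libraries of the same condition. The median percentage of the 18 epithelial markers was 7.16, 0.0106 and 0.0858 at 5 mM and 15.3, 5.78 and 66.5 at 50 mM glucose (replicates 1, 2 and 3). It was 0.0841, 3.70 and 0.0502 with vehicle, 0.0684, 0 and 0.0601 at 1 ng/mL, and 3.59, 0.00460 and 0.357 at 10 ng/mL. Between 0 and 10 of the 18 markers had no read in a stromal library, with ESRP1 at 0 in 8 and CLDN3 and GRHL2 at 0 in 6 of the 15.

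In the 9 stromal libraries with a marker median under 1%, the members are described in 3 groups by level. The median does not stand for every marker. Replicate 2 at 5 mM, with a median of 0.0106%, had 8 of 18 markers at 0 but a marker sum of 327.9 CPM. That sum was 324.9 CPM in replicate 1 at 10 ng/mL and 352.4 CPM in replicate 2 with vehicle, whose medians were above 1%. DSP, PKP1 and PKP3 were lowest. DSP had 0 to 0.442% of its epithelial level (0 to 26 reads), PKP1 0 to 1.65% (0 to 12 reads, highest in replicate 3 at 5 mM, where the marker median was 0.0858%) and PKP3 0 to 0.897% (0 to 7 reads). DSG2, PPL and EVPL were somewhat higher, at 0.181 to 4.48%, 0.504 to 7.64% and 0.406 to 10.3%. At 5 mM the epithelial means of PPL and EVPL, 836 and 60.05 CPM, included the high library of replicate 2. The other 2 libraries averaged 393 and 17.8 CPM, against which the 5 mM percentages of both genes would be higher. The highest value of PPL was one of these, in replicate 3 (63.9 CPM). DSC2, JUP and PKP2 had the highest percentages, although PKP2 began at 10.5%, close to the highest EVPL value of 10.3%. DSC2 had 22.6 to 57.5% of its epithelial level (945 to 2204 reads), JUP 22.4 to 56.2% (1012 to 4222 reads) and PKP2 10.5 to 41.3% (86 to 529 reads). Stromal libraries thus held RNA of a desmosomal cadherin, of plakoglobin and of a plakophilin where they held nearly no RNA of desmoplakin.

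In the other 6 stromal libraries, whose marker medians were 3.59 to 66.5%, DSP had 2.97 to 47.1%, PKP1 1.03 to 51.8% and PKP3 3.53 to 55.3% of the epithelial level. DSG2, PPL and EVPL had 4.53 to 42.9%, 4.64 to 45.0% and 3.55 to 128.8%. DSC2 stayed at 38.1 to 56.3%, JUP at 29.7 to 71.9% and PKP2 at 17.0 to 68.8%. The libraries were divided at 1% after their values were seen, and no test was made between them.

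**Figure D3:**
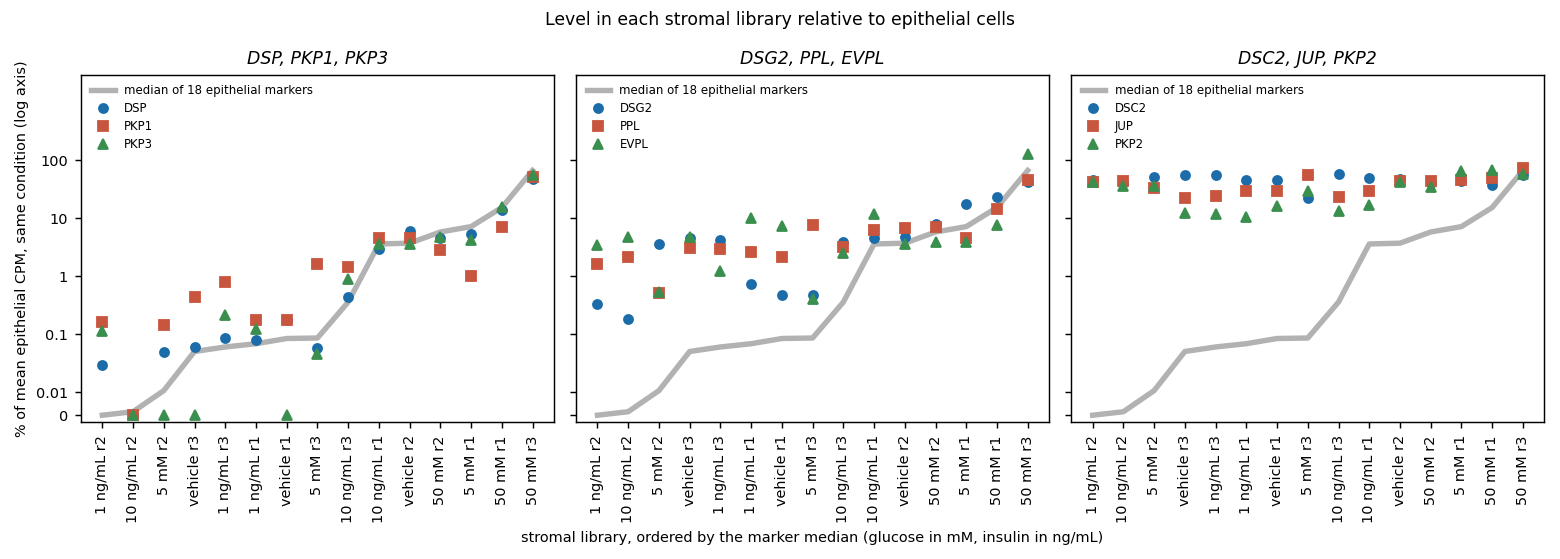
Level of the desmosome genes in each of the 15 stromal libraries as a percentage of the mean epithelial level of the same condition (vertical axis, log scale). Values of 0 are drawn at the lowest mark, labelled 0. The libraries are ordered from left to right by the median percentage of 18 epithelial markers (grey line). DSP and PKP3 climb with the grey line, which runs from 0 to 66.5%, and PKP1 does so less closely. DSG2, PPL and EVPL are also highest at the right end of the line. DSC2, JUP and PKP2 stay between 10.5 and 71.9% throughout.

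The glucose comparison asks whether a high concentration alters the cells, and in epithelial cells no member was called, nor was any protein-coding gene (0.0%). Positive log2 fold changes stand for more RNA at 50 mM. No member had an unadjusted p-value under 0.05, against 1.54% of all genes, and DESeq2 called none either. Without replicate 2, 1.65% of all genes but still no member were called, and EVPL and DSC2 had an unadjusted p-value under 0.05, as had 13.7% of all genes. The members' median was -0.20, with 2 of 9 above 0, and that of all genes was 0.0061. DSC2 was higher at 50 mM in 3 of 3 replicate pairs, with 0.57 (standard error 0.304, adjusted p = 0.804 in edgeR's quasi-likelihood test, Benjamini-Hochberg adjusted), but the pair of replicate 2 differed by 1.37 on the log2(CPM + 0.5) scale and the others by 0.23 and 0.087. PKP1 was lower in 3 of 3 pairs, with -0.38 (standard error 0.248), as were PKP2 with -0.15 and JUP with -0.12. The other members gave 0.096 for DSG2, -0.23 for DSP, -0.20 for EVPL, -0.53 for PPL and -0.54 for PKP3.

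Some of these values turned on the epithelial library of replicate 2 at 5 mM. In that library EVPL was 8.11 times, PPL 4.39 times and PKP3 2.67 times the mean of the other 2 libraries at 5 mM, and DSG2 was 0.567 times. Other lists were divided there as well. Of the 6 hemidesmosome genes 4 were above the other 2 libraries, up to 3.65 times for the plakin PLEC, and 2 were below, with the integrin ITGA6 at 0.414 times. Of the 18 epithelial markers 13 were above, up to KRT18, and 5 below, down to 0.320 times for the splicing factor ESRP1. Of the 15 stromal markers 12 were below. EVPL, PPL, PKP3 and JUP were higher in it than in the other 14 epithelial libraries, and DSC2 and DSG2 were lower. Without replicate 2 the fold changes were 0.65 for EVPL, 0.11 for PPL, 0.037 for PKP3 and -0.079 for DSG2, each with the opposite sign. Those of the other members were nearer to 0, at 0.20 for DSC2, -0.18 for PKP1, -0.077 for PKP2, -0.048 for DSP and -0.018 for JUP. Stromal markers moved with glucose in these libraries as well, since all 14 that were tested had fold changes above 0, with a median of 0.83. Their part in the members' values was not tested.

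In stromal cells all 9 members had a higher fitted level at 50 mM, and none was called, nor was any gene (0.0%). PKP1 had 0.456, 0.0629 and 0.732 CPM at 5 mM and 2.38, 0.955 and 17.8 CPM at 50 mM. Its log2 fold change was 3.59 (standard error 0.530, unadjusted p = 0.00200, adjusted p = 0.696 in edgeR's quasi-likelihood test, Benjamini-Hochberg adjusted). PPL gave 1.63 (standard error 0.427, unadjusted p = 0.0169). These were the 2 members with an unadjusted p-value under 0.05, which 4.96% of all genes had. DSP gave 5.06 (standard error 1.98), PKP3 4.22 (standard error 1.70), EVPL 2.41 (standard error 1.69) and DSG2 2.11 (standard error 1.35). DSC2 gave 0.70 (standard error 0.363), and JUP and PKP2 0.11 each (standard errors 0.104 and 0.225).

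The largest of these values belonged to DSP, PKP3 and PKP1, which were nearly absent from most stromal libraries, and the smallest to JUP and PKP2. The members' median was 2.11, that of the 18 epithelial markers was 4.65 with 18 of 18 above 0, that of the 15 stromal markers was -0.51 with 0 of 15 above 0, and that of all genes was -0.025. All members but PKP2 and EVPL were higher at 50 mM in 3 of 3 pairs. Without replicate 3, the fold change was 2.71 for PKP1, 2.43 for DSP, 1.90 for PKP3, 1.61 for PPL, 0.72 for DSG2, 0.27 for EVPL, 0.22 for DSC2, 0.12 for JUP and -0.17 for PKP2. Without replicate 1, PKP3 and 0.373% of all genes were called. DESeq2 called 4 members, PKP1, PKP3, DSP and PPL, and 1.33% of all genes. The part of the epithelial markers in these differences was not tested.

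PKP1 and JUP were lower at 50 mM in 3 of 3 epithelial pairs and higher in 3 of 3 stromal pairs. The difference of the glucose effect between the cell types was fitted on the 12 glucose libraries with the replicate number within each cell type as a block. It is the signed log2 fold change in epithelial cells minus that in stromal cells, so a negative value does not mean an effect of smaller size. It was below 0 for all 9 members and called for none, nor for any gene (0.0%). PKP1 gave -4.00 (standard error 0.540, adjusted p = 0.302 in edgeR's quasi-likelihood test, Benjamini-Hochberg adjusted) and JUP -0.23 (standard error 0.254, adjusted p = 0.810). PKP1, PPL, DSP and PKP3 had an unadjusted p-value under 0.05, against 7.65% of all genes. The epithelial markers were below 0 in 18 of 18, with a median of -4.88. PKP1, PKP3 and DSP were called with DESeq2, which called 1.78% of all genes, and in edgeR with replicate 1 left out, which called 2.18%.

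**Figure D4:**
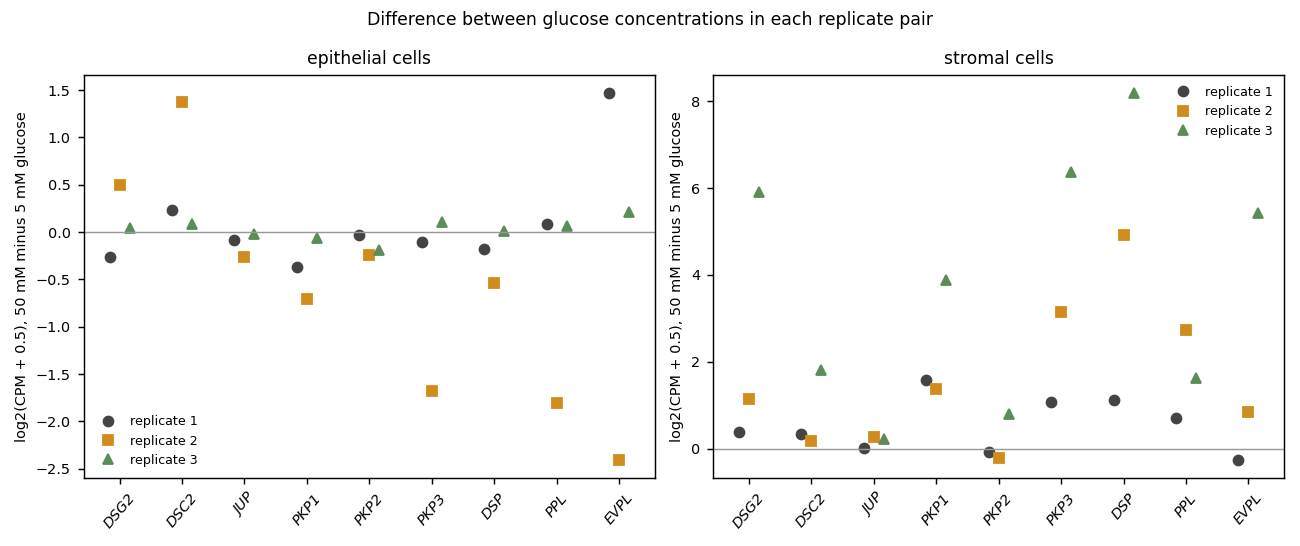
Difference in log2(CPM + 0.5) between 50 mM and 5 mM glucose (vertical axis) for each desmosome gene in each replicate pair, in epithelial (left) and stromal cells (right), on different vertical scales. In epithelial cells the pair of replicate 2 is lowest for EVPL, PPL and PKP3, and in stromal cells the pair of replicate 3 is highest for DSP, PKP3, DSG2 and EVPL.

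Insulin was compared in 3 ways within each cell type, 1 ng/mL with vehicle, 10 ng/mL with vehicle, and 10 with 1 ng/mL, and these comparisons share libraries. In epithelial cells no member was called in any of them, and 0.0%, 0.113% and 0.0% of all genes were. The 27 log2 fold changes of the members lay between -0.29 and 0.064, with standard errors from 0.0361 to 0.136 and adjusted p-values from 0.595 to 1.00 (edgeR's quasi-likelihood test, Benjamini-Hochberg adjusted). In the glucose comparison of the same cell type the standard errors had been 0.209 to 0.833. Apart from EVPL and PPL, all values lay between -0.056 and 0.064.

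EVPL had the largest epithelial values. It had 20.5, 21.7 and 26.6 CPM with vehicle, 16.5, 21.6 and 21.5 CPM at 1 ng/mL, and 22.2, 19.5 and 15.0 CPM at 10 ng/mL, so that the groups overlapped. The log2 fold change from vehicle was -0.21 at 1 ng/mL (standard error 0.0919, unadjusted p = 0.0298 from edgeR's quasi-likelihood test) and -0.29 at 10 ng/mL (standard error 0.111, unadjusted p = 0.0133, adjusted p = 0.595 with Benjamini-Hochberg adjustment). An unadjusted p-value under 0.05 was found for 2.87% and 6.78% of all genes in these comparisons. EVPL was lower than with vehicle in 3 of 3 pairs at 1 ng/mL and in 2 of 3 at 10 ng/mL, and without replicate 1 it was called at 10 ng/mL, with -0.49, as were 0.254% of all genes.

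In stromal cells no member was called either, with 0.0%, 0.0% and 0.0244% of all genes called. PKP1 and PKP3 had too few reads to be tested in any stromal insulin comparison, and DSP was tested only between 10 ng/mL and vehicle, where it gave 0.052 (standard error 1.73). The other 6 members were tested in all 3. DSC2, JUP and PKP2 lay between -0.11 and 0.10, with standard errors from 0.0477 to 0.141. DSG2, PPL and EVPL lay between -0.89 and 0.70, with standard errors from 0.174 to 0.979. PPL had 12.3, 7.63 and 13.7 CPM at 1 ng/mL and 28.2, 9.56 and 14.4 CPM at 10 ng/mL, with a fitted change of 0.55 on the log2 scale (standard error 0.174, unadjusted p = 0.00976 from edgeR's quasi-likelihood test, which 3.68% of all genes passed at 0.05). In the same comparison 4 of the 18 epithelial markers had enough reads to be tested, and all 4 were above 0, with a median of 3.23 and KRT19 called. Their part in the PPL value was not tested. The difference of the 10 ng/mL effect between the cell types was called for no member and for 0.0% of all genes, and without replicate 2 for PKP1, PKP3 and DSP and for 1.24% of all genes. The stromal vehicle library of that replicate had epithelial markers at a median of 3.70%, against 0.0841 and 0.0502% in the other 2.

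In epithelial cells the replicate number carried most of the spread of 8 members in the insulin experiment. DSC2 had 225, 221 and 218 CPM in replicate 1 over vehicle, 1 and 10 ng/mL, 390, 370 and 381 CPM in replicate 2, and 358, 369 and 355 CPM in replicate 3. PKP2 had 87.9, 85.6 and 90.6 CPM in replicate 1, 90.1, 105 and 97.7 CPM in replicate 2, and 49.0, 47.3 and 47.4 CPM in replicate 3. Replicate 1 was thus the low one for DSC2 and replicate 3 for PKP2. Of the sum of squares of log2(CPM + 1) over the 9 epithelial libraries, 99.5% lay between replicate numbers for DSC2, 98.5% for PKP2, 95.9% for DSP, 92.5% for DSG2, 90.3% for PKP1, 86.6% for JUP, 79.1% for PPL and 67.1% for PKP3. EVPL was the exception with 2.90%. Insulin doses held 0.116% for DSC2 to 28.5% for EVPL.

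In stromal cells 4 members had at least 10 reads in each insulin library and were treated in the same way. JUP had 142, 147 and 149 CPM in replicate 1, 217, 207 and 221 CPM in replicate 2, and 110, 123 and 118 CPM in replicate 3, with 98.3% of its sum of squares between replicate numbers. The share was 94.6% for PKP2, 86.3% for DSC2 and 1.46% for PPL. Of the 5 members with fewer reads, EVPL had 80.6%, DSG2 37.3%, DSP 6.11%, PKP3 4.97% and PKP1 0.806%. JUP was highest in replicate 2 in stromal cells and in replicate 3 in epithelial cells at each dose, whereas PKP2 was highest in replicate 2 in both cell types. Whether a number marks an animal, a device or a day is not given in the sources used here.

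**Figure D5:**
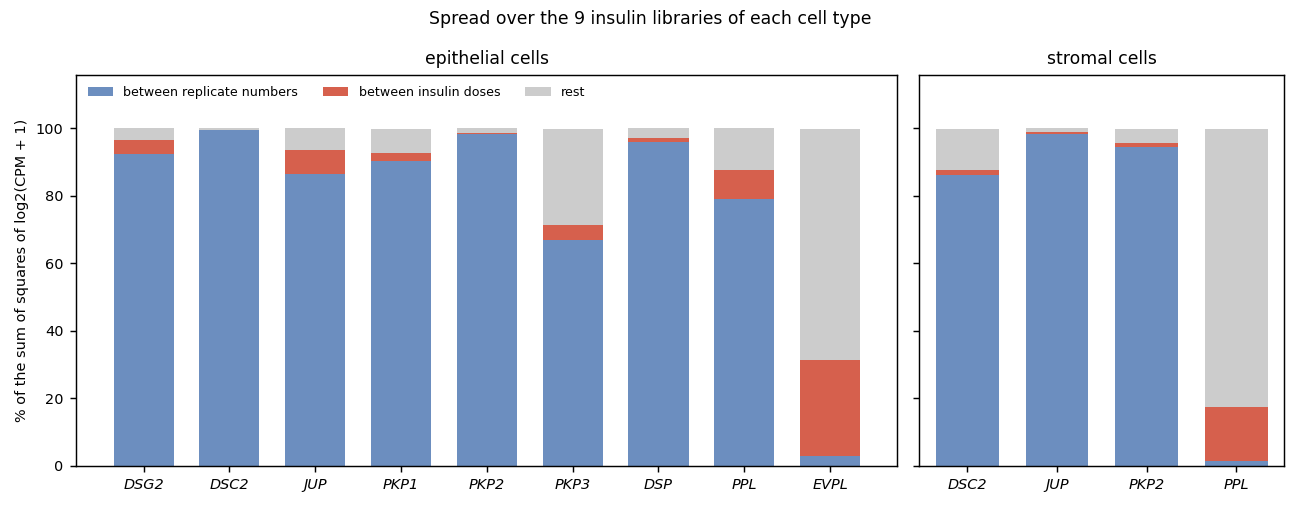
Share of the sum of squares of log2(CPM + 1) over 9 insulin libraries of a cell type (vertical axis, percent) that lies between replicate numbers (blue), between insulin doses (red) and in the rest (grey), for 9 desmosome genes in epithelial cells and the 4 with at least 10 reads in each library in stromal cells. Replicate numbers hold 67.1% or more in epithelial cells except for EVPL, and doses hold at most 28.5%.

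Within epithelial cells the members did not vary as one group. Over the 15 epithelial libraries, with log2(CPM + 1) centred on the mean of each experiment, the 36 pairs of members had Pearson correlations from -0.94 to 0.91 with a median of 0.022, and 19 were positive. These libraries share replicate numbers and depth, and the values are given as a description. The cadherins DSC2 and DSG2 varied together (0.79, and 0.73 without replicate 2 at 5 mM), and PKP1 ran against both, with -0.94 for DSC2 and -0.77 for DSG2 (-0.93 and -0.72 without that library). DSG2 ran against EVPL (-0.89). PKP3 and PPL gave the highest value of 0.91, which was 0.46 without that library.

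Among 9768 protein-coding genes with a mean of at least 5 CPM in these libraries, the 5 whose levels followed the mean of the centred and scaled members most closely were APEH (0.97), MIPEP (0.96), LAD1 (0.96), PACSIN2 (0.96) and SREBF1 (0.96). APEH and MIPEP encode peptidases, LAD1 a protein of anchoring filaments, PACSIN2 a protein that bends membranes, and SREBF1 a regulator of lipid synthesis. Without the 2 libraries farthest from the median, the epithelial ones of replicate 2 at 5 mM glucose and at 1 ng/mL insulin, the correlations were 0.77 to 0.85.

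A list of 8 other desmosome genes held mostly low levels. DSG3, DSC1, DSC3, PKP4, PERP and KAZN matched a symbol, and DSG1 and DSG4 did not. In the RefSeq gene table of assembly ARS-UCD2.0, the stretch from DSG2 to DSC2 was listed. Its 6 desmosomal cadherin genes lie in the order DSG2, DSG3, DSG4, DSG1, DSC1 and DSC2, with a tRNA gene after DSG3 and a long noncoding RNA gene after DSG1. Genes beyond these ends were not listed, so the place of DSC3 is not given. DSC1 had at most 23 reads in a library, and DSG3 had 1.04 to 10.2 CPM in epithelial cells and 0 reads in 9 of 15 stromal libraries. DSG3 was higher in epithelial cells in all comparisons but that at 50 mM, with 5.32 under vehicle (standard error 0.625, adjusted p = 0.00305 in edgeR's quasi-likelihood test, Benjamini-Hochberg adjusted).

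PKP4, an armadillo protein of both desmosomes and adherens junctions, had 81.3 to 125 CPM in epithelial libraries and 23.1 to 57.8 CPM in stromal ones and was higher in epithelial cells in all 5 comparisons, with 1.76 under vehicle (standard error 0.117) and 1.00 at 50 mM (standard error 0.230). PERP, a membrane protein needed for stable desmosomes in skin, was higher in epithelial cells in 4 comparisons, with 6.32 under vehicle (standard error 0.738), but was not called at 50 mM (adjusted p = 0.109). DSC3 went the other way. This desmocollin had 0 to 5.53 CPM in epithelial libraries and 0.483 to 113 CPM in stromal ones, and it was lower in epithelial cells under vehicle (-1.48, adjusted p = 0.0242) and at 1 ng/mL (-1.61, adjusted p = 0.0112), in edgeR's quasi-likelihood test, Benjamini-Hochberg adjusted. Of the stromal libraries, KAZN had at most 6 reads. In the glucose and insulin comparisons no gene of this list was called.

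For comparison, 12 adherens junction genes were called in both directions between the cell types, 5 higher and 2 lower in epithelial cells at 5 mM glucose, 2 and 3 at 50 mM, 7 and 3 with vehicle, 7 and 4 at 1 ng/mL, and 6 and 4 at 10 ng/mL. With vehicle, CDH1, the epithelial cadherin, gave 7.76 and the actin-binding VCL -1.15. Of 6 hemidesmosome genes, 3, 0, 4, 4 and 4 were higher and 0, 0, 0, 1 and 1 lower in the same order of conditions, with ITGA6 at 4.99 and PLEC at -0.013 with vehicle. No gene of either list was called for glucose or insulin. The 9 members were called in 1 direction only. This did not hold for the other desmosome genes, of which DSC3 was called lower with vehicle and at 1 ng/mL. The members were chosen with earlier results of these data known, and the difference between the lists was not tested.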

How the data were processed

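Gene counts were deposited by the authors in 1 table for each experiment, with 27607 genes and 30 libraries in all. Per the methods of the study, the authors prepared stranded libraries, sequenced 75 bp single-end reads, removed adapters (Cutadapt) and poor reads (fastq_quality_filter), mapped the rest to the Ensembl release 96 cow genome in Rsubread and summed unique alignments per gene in featureCounts. The counts are raw and not normalized by the authors. The strand setting of the counting is not given in the sources used here. The authors also deposited 13 comparison tables with fold changes and p-values from DESeq2, of which only the gene symbols and gene types were used, and these cover 17468 genes. Since the annotation release names no assembly, no coordinates are given.

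Groups and replicate numbers were taken from the sample labels. For each of 13 comparisons, the 6 libraries were fitted with edgeR 4.0.16 in R 4.3.3 on the whole table, with TMM normalization, filterByExpr and the replicate number as a block, because the methods state a paired design. Adjusted p-values are Benjamini-Hochberg values over all genes tested, standard errors were derived from the fold change and the F statistic, and background shares are of protein-coding genes. For 2 comparisons the difference between cell types was fitted on 12 libraries. The fitting was tested on simulated data. Samples with one number deviated together, with all 3 correlations over 0.1, in 7 of 8 treatment and 3 of 5 cell type comparisons (0.029 to 0.89 and 0.023 to 0.52).

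The members, and the lists of other desmosome, adherens junction, hemidesmosome, epithelial, stromal, endothelial, leukocyte and smooth muscle genes, were chosen with earlier results of these data known. All 9 members are named, and other genes where a list result needs them. The genes most like the members were the 5 with the highest Pearson correlation. Alternatives were no replicate block, DESeq2 1.42.0, DESeq2 size factors, no filter, 1 fit over each experiment, leaving out each replicate, and a pseudocount of 0.1 for the likeness.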

Additional observations from a re-analysis of the deposited data

How the results depend on the processing

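The counts of called members between the cell types in the insulin experiment stayed within 1.5 times the reported 9 under every alternative, with 8 to 9 for vehicle, 9 at 1 ng/mL and 7 to 9 at 10 ng/mL when 1 replicate was left out. At 5 mM glucose, DESeq2 and 1 fit over the experiment each called 8 members in place of 4, and 3 to 6 were called with 1 replicate left out. At 50 mM the count of 2 depended on the setting: it was 0 without the replicate block, 9 with DESeq2, 1 with DESeq2 size factors, 6 without the filter on low counts, 1 in 1 fit over the experiment, and 0 to 8 with 1 replicate left out. With 1 replicate left out, 8.34 to 12.0% of all genes were called higher at 5 mM and 0.0 to 13.3% at 50 mM. For DESeq2, its size factors, no filter and 1 fit, such shares are not given here. Those counts show the effect of the setting and are not a result about the members. Without the block the count of called members changed in no other comparison, but at 5 mM EVPL and PPL were called in place of DSP and DSG2. The count of all protein-coding genes called at 50 mM went from 2328 to 1052 without the block, and to 0 without replicate 1. For glucose in stromal cells, DESeq2 called 4 members (1.33% of all genes) and leaving out 1 replicate 0 to 1 (0.0 to 0.373%). The difference of the glucose effect was called for 3 members with DESeq2 (1.78% of all genes). With 1 replicate left out it was called for 0 to 3 (0.0 to 2.18%), and that of 10 ng/mL insulin for 0 to 3 (0.0 to 1.24%). For insulin, leaving out 1 replicate gave 0 to 1 in epithelial cells (10 ng/mL with vehicle), against 0.0568 to 0.536% of all genes. In stromal cells it gave 0 to 2 (1 ng/mL with vehicle), 0 to 1 (10 ng/mL with vehicle) and 0 to 2 (10 with 1 ng/mL). The shares of all genes there were 0.0325 to 0.755%, 0.0 to 0.604% and 0.185 to 0.52%. Without the filter, 1 member was called in stromal cells between 1 ng/mL and vehicle and 3 between 10 and 1 ng/mL. The shares of all genes without the filter are not given here, so the no-filter counts too are not a result about the members. These added stromal insulin calls were of DSP, DSG2 and PKP3, which have few stromal reads, and of PPL, which had at least 90 in each library.

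The sign of a glucose fold change turned only when 1 replicate was left out, with ranges of -0.91 to 0.037 for PKP3, -0.91 to 0.11 for PPL, -1.15 to 0.65 for EVPL and -0.079 to 0.23 for DSG2 in epithelial cells, and -0.17 to 0.34 for PKP2 in stromal cells. The 5 genes most like the members were the same 5 with the other pseudocount. The causes of these changes were not tested. Stromal levels of DSP, PKP1 and PKP3 under 3 reads are not above the limit of a count of 0, so that their fold changes between cell types have no firm upper size.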
